A study of Mus musculus with 12 samples.

Results

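Transcripts that RefSeq lists as non-coding (accessions beginning NR_) were followed in mouse embryonic stem cells (ESCs) on 12 one-colour Agilent arrays. Members were chosen by signal: an accession needed a probe marked well above background on all 12 arrays. The brightest such probe was used, and 591 of the 2342 NR_ accessions on the array were left. Of these, 558 carried a gene symbol after matching to RefSeq names and 33 kept their accession only. By RefSeq's gene class, 395 were long non-coding RNAs (lncRNAs), 114 were transcribed pseudogenes and 20 were non-coding transcripts of protein-coding genes. The 33 without a symbol had no class, and the remaining ones were mostly small structural RNAs.

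The 4 groups held 3 arrays each, described by the submitters as biological replicates. Untreated cells were collected at 0 h. A second group received 250 nM 4OHT for 6 h. The third was given 1 µM MG132, alone for 30 min and then for 6 h, and the fourth had both compounds on that schedule. All cells, the untreated ones included, were grown in ESC medium with LIF and 250 nM PD173074. The series is titled as a study of transcription that depends on the proteasome and Erk. The protein through which 4OHT acts in this line is not given in the sources used here, and no vehicle was named. Since untreated cells were taken only at 0 h, time and compound cannot be told apart in comparisons with them.

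MG132 is a peptide aldehyde that blocks the proteasome, the complex that degrades most short-lived proteins. 4OHT, the active form of tamoxifen, binds the oestrogen receptor and is widely used to switch on fusion proteins that carry its ligand-binding domain. PD173074 inhibits the fibroblast growth factor receptor kinases, which lie upstream of Erk in ESCs. Non-coding transcripts act in several ways: small nucleolar RNA (snoRNA) host genes carry in their introns the guides for ribosomal RNA modification, while their spliced exons are often removed by nonsense-mediated decay. Other hosts release microRNAs, some lncRNAs stay at chromatin or in nuclear bodies, and transcribed pseudogenes can be close copies of coding genes.

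Being above background on every array was the condition of membership, so detection itself is no result. The members' mean processed intensity ran from 20.3 to 365000 units, with a median of 149. The 69 NR_ accessions above background on 11 of the 12 arrays, just outside the rule, had a median of 26.8 units (16.4 to 118), while 1036 were above background on none. Levels below are log2 processed intensity relative to the array's 75th percentile, and a difference of 1 on that scale is a doubling. They compare 1 probe across arrays and say nothing of one transcript against another. All 10 ESC markers checked were above background on every array, against 3 of 9 fibroblast markers, 7 of 8 primitive endoderm markers, 3 of 7 neural markers and 2 of 6 trophoblast markers. The markers moved with treatment. Of the 10 ESC markers, 2 rose and 3 fell with 4OHT, and 0 rose and 10 fell with MG132 (limma, adjusted p under 0.05). Their summed intensity, relative to the array's 75th percentile, ranged from 906 to 962 in untreated arrays and from 875 to 899 after 4OHT. MG132 arrays gave 541 to 558, and arrays with both compounds 502 to 585. Dppa5a made up most of that sum, at 248000 units untreated, 209000 with 4OHT, 128000 with MG132 and 141000 with both. Mean processed intensity of Nanog, a core pluripotency factor, was 7440 units untreated, 1170 with 4OHT, 2220 with MG132 and 763 with both. That of Cdx2, a trophoblast regulator, was 5.16, 1260, 5.69 and 272 in the same order, and that of the surface marker Thy1 736, 8290, 1430 and 1710. Summed levels of the 9 fibroblast markers were 1.7 to 2.23 untreated and 17.5 to 28 with 4OHT, those of the 6 trophoblast markers 0.357 to 0.509 and 1.98 to 7.04. Primitive endoderm sums were 26.7 to 37.3 and 10.3 to 28.8, and neural sums 9 to 10.6 and 7.49 to 8.28. Thy1 made up most of the fibroblast sum. Lama1 made up most of the primitive endoderm sum and averaged 14400 units untreated and 7520 with 4OHT. Of the neural markers, Tubb3 averaged 3920 units untreated and 1240 with 4OHT, and Nes 562 and 1310. Of 6 fibroblast markers tested, 2 rose and 1 fell with 4OHT, and Pdgfrb averaged 64.2 units untreated and 23.8 with 4OHT. Of 5 trophoblast markers tested, 4 rose and 0 fell. Of 8 primitive endoderm markers tested, 1 rose and 0 fell with 4OHT, and of 5 neural markers 2 rose and 3 fell. Lum, Neurog2 and Elf5 were above background on none of the arrays. The part of these markers in the results on members was not tested. These are bulk RNA samples, in which fewer cells of a type and less RNA per cell cannot be told apart.

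One array stood apart. The members' deviations from their group means had an SD of 0.53 on 4OHT replicate 1, against 0.33 and 0.35 on the other 4OHT arrays and 0.15 to 0.26 elsewhere, and its 75th percentile was the lowest (309 units, others up to 485). The arrays came from slides 1 and 2: all untreated and 4OHT arrays and MG132 replicates 1 and 2 lay on slide 1, while MG132 replicate 3 and every array with both compounds lay on slide 2. Counts of called members in comparisons that involve the combined treatment are therefore also given with slide as a block. Some results on single transcripts are too, and where no such value is printed the call may not hold under it. MG132 was the only group on both slides, so the block rests on its replicate 3 against its replicates 1 and 2. A slide effect and a deviation of that array cannot be told apart.

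Of the 591 members, 138 differed between 4OHT-treated and untreated cells (23.4%; limma, Benjamini-Hochberg adjusted p under 0.05 over 28294 accessions), 78 higher and 60 lower. The share over all accessions tested was 28.8% (14.1% higher, 14.7% lower). The members' share was near, and somewhat under, that of all accessions tested, as in the comparisons that follow. With MG132 alone, 235 differed from untreated cells, 119 higher and 116 lower, against 43% of all accessions (23.9% higher, 19.1% lower). Adding 4OHT to MG132 changed 153 members against MG132 alone, 95 higher and 58 lower, beside 26.5% of all accessions (13.8% higher, 12.6% lower). Adding MG132 to 4OHT changed 276 against 4OHT alone, 155 higher and 121 lower, beside 50.2% (29.1% higher, 21.2% lower). Both compounds together changed 323 against untreated cells, 201 higher and 122 lower, beside 55.6% (32.9% higher, 22.7% lower). Across the 4 groups, 375 members differed in some way, beside 68.2% of all accessions. An accession was tested when every array of some group was above background, a looser filter than the members'. Of the 21384 accessions above background on all 12 arrays, 30.8% were called for 4OHT and 45.4% for MG132. For 4OHT added to MG132 the share was 29%, for MG132 added to 4OHT 52.1% and for both against untreated 58.9%. The members' shares were lower, at 23.4%, 39.8%, 25.9%, 46.7% and 54.7% in that order.

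The members' median difference was 0.1, 0.03, 0.14, 0.05 and 0.24 in those 5 comparisons, beside 0.03, 0.07, 0.07, 0.13 and 0.19 over all accessions. Over the accessions above background on all 12 arrays, as the members were, it was 0.04, 0.02, 0.07, 0.04 and 0.11. These splits depend on how arrays are scaled. Centring each array on its median moved the median of all accessions by -0.16, -0.34, -0.07, -0.24 and -0.4 in the same order. Under it the counts of higher and lower members became 49 and 84 for 4OHT, 69 and 228 for MG132, 63 and 62 for 4OHT added to MG132, 96 and 185 for MG132 added to 4OHT, and 87 and 204 for both against untreated. Quantile normalization gave 59 and 77, 105 and 155, 82 and 78, 127 and 155, and 137 and 156. With normexp background correction they were 157 and 47, 126 and 103, 104 and 48, 127 and 106, and 240 and 104. With slide as a block, 60 members were called for 4OHT added to MG132, 120 for MG132 added to 4OHT and 158 for both against untreated. Where only the 6 arrays compared entered the fit, 91 were called for 4OHT and 268 for MG132.

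**Figure D1:**
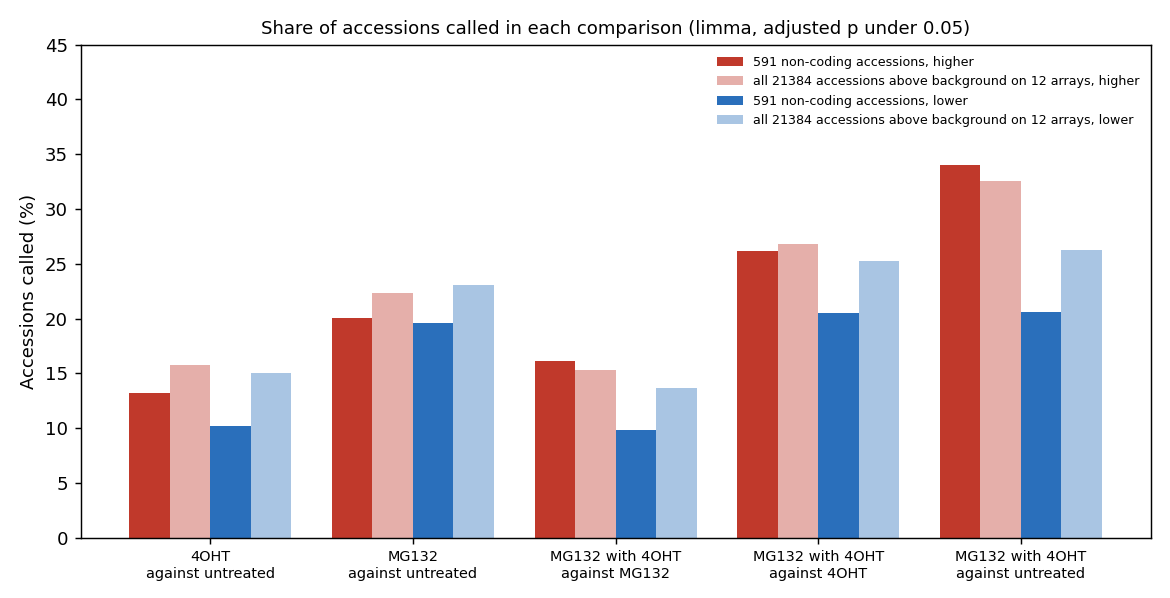
Share of accessions called (adjusted p under 0.05, limma), in percent, for the 5 comparisons, with red bars for higher and blue bars for lower, in full colour for the 591 members and pale for the 21384 accessions of any kind above background on all 12 arrays. The members' total share for 4OHT was 23.4% beside 30.8% in the larger set, and for MG132 39.8% beside 45.4%.

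Under MG132 the snoRNA host genes moved mostly one way. Of the 17 hosts among the members, 11 rose and 2 fell with MG132, with a median difference of 1.17 beside 0.07 over all accessions. Of all accessions tested, 23.9% rose and 19.1% fell with MG132. For the hosts, other scalings changed the counts little. Median centring gave 10 and 4, and quantile normalization 12 and 2. In cells already given 4OHT, MG132 raised 11 and lowered 2 (median 0.82), or 8 and 2 with slide as a block. With 4OHT alone 2 rose and 1 fell, while under median centring 0 rose and 2 fell. The hosts were taken from a list of 25 names, and 29 members of any name contain an annotated snoRNA gene: 13 of those rose and 5 fell with MG132. Snhg20, 1 of the 17, spans 0 annotated snoRNA genes. Rian, outside the 17, spans 11 and fell by 1.2.

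The 4 hosts with the largest rises are shown around their annotated starts, 20 bases before to 30 after, because such hosts often begin in a pyrimidine run. Sequences are RefSeq's, build GRCm38.p6, read 5′ to 3′ on the gene's strand, with the first 5 transcribed bases in capitals. Snhg1 lies at chr19:8723467-8723516 (+), Snhg12 at chr4:132308658-132308707 (+), 2410006H16Rik at chr11:62602857-62602906 (+) and Snhg16 at chr11:116671640-116671689 (+).
Snhg1: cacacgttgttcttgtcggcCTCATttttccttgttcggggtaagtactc
Snhg12: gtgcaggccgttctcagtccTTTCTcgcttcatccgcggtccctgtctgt
2410006H16Rik: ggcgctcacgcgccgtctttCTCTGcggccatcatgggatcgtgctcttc
Snhg16: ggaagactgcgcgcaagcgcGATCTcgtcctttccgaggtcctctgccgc
Of these, Snhg12 begins with 5 pyrimidines at the annotated start, and the others have at least 1 A or G there. Among the 14 hosts with a promoter in the RefSeq table, 4 (28.6%) had a start whose first 5 bases were all C or T. They were Snhg12, Snhg7, Snhg8 and 1110038B12Rik, all among the 10 such hosts that rose with MG132. That share was 5.28% over 27025 genes and 6.31% over the 333 members with a promoter entry. The measure was chosen after the hosts' values were seen and carries no test.

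Snhg1 (NR_002896), which hosts box C/D snoRNAs, stood at 1.5, 1.56 and 1.73 on the untreated arrays and at 1.65, 1.79 and 1.73 with 4OHT. It reached 4.89, 4.87 and 5.04 with MG132 and 4.64, 4.64 and 4.75 with both. Every MG132 array lay far above every array without it. The rise with MG132 was 3.34 ± 0.09 (log2, SE, n = 3 per group), a 10.1-fold change (adjusted p = 6.1e-08), and in the presence of 4OHT it was 2.95 ± 0.09 (7.74-fold, adjusted p = 4.1e-08). Its divergent coding neighbour Slc3a2, an amino acid transporter chain, rose by 0.92 with MG132.

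Snhg12 (NR_029468) moved likewise, from 2.99, 3.13 and 3.32 untreated to 5.95, 5.92 and 6.33 with MG132 (2.92 ± 0.17, 7.57-fold, adjusted p = 1.7e-06). With 4OHT alone its arrays read 2.74, 2.95 and 3.31, inside the untreated range or just below, and with both 5.65, 5.63 and 5.89. 2410006H16Rik (NR_030738) rose 6.84-fold with MG132 (2.77 ± 0.15) and Snhg16 (NR_027821) 6.39-fold (2.68 ± 0.1). For both, all 6 arrays with MG132 lay above all 6 without it. Snhg15 (NR_045893) rose by 1.87 ± 0.15, and a second probe for it gave 1.89.

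Snhg5 (NR_040721) was lowered by 4OHT as well as raised by MG132. It read 4.39, 4.46 and 4.69 untreated, 3.92, 4.18 and 3.44 with 4OHT, 6.43, 6.34 and 6.51 with MG132, and 5.42, 5.34 and 5.68 with both. 4OHT lowered it without MG132 (-0.67 ± 0.18, adjusted p = 0.017) and with it (-0.95 ± 0.18, adjusted p = 0.0038), and no treated group overlapped its control. Among the smaller rises with MG132 were Taf1d (1.28 ± 0.11, a non-coding transcript of a gene for an RNA polymerase I factor), 1110038B12Rik (1.2), Snhg7 (1.17), Snhg6 (0.8) and Snhg8 (0.63), the last 4 named after their values were seen.

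Snhg3 and Snhg20 went the other way. Snhg3 (NR_003270) read 2.45, 2.55 and 2.43 untreated, 2.8, 2.85 and 2.85 with 4OHT, 1.32, 1.37 and 1.2 with MG132, and 1.52, 1.56 and 1.44 with both. It rose with 4OHT (0.36 ± 0.08, adjusted p = 0.0078) and fell by 1.18 ± 0.08 with MG132 (adjusted p = 4.2e-06), and neither treated group overlapped the untreated arrays. Snhg20 (NR_027059) read 2.37, 2.52 and 2.38 untreated, 2.52, 2.83 and 2.98 with 4OHT, 1.69, 1.72 and 1.62 with MG132, and 0.62, 0.56 and 0.92 with both. It fell by 0.75 ± 0.13 with MG132 (adjusted p = 0.0014) and by a further 0.98 ± 0.13 when 4OHT was added (adjusted p = 0.00075), whereas 4OHT alone gave 0.35 (adjusted p = 0.078). The 4OHT response with MG132 minus that without it was -1.33 ± 0.19 (adjusted p = 0.0036).

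Of the remaining hosts, Epb41l4aos (0.35, adjusted p = 0.11), Snhg4 (-0.19, adjusted p = 0.16) and Snhg9 (-0.25, adjusted p = 0.31) did not pass the test with MG132. Snhg10, named after its values were seen, did not pass (-1.31, adjusted p = 0.16), and 1 MG132 array read -3.13 while the other MG132 arrays read 0.07 and 0.21. Accession NR_002840, which no symbol matched, behaved like the risen hosts: 5.62, 5.69 and 5.52 untreated, 7.43, 7.37 and 7.47 with MG132 (1.81 ± 0.1, adjusted p = 1.2e-06; a second probe gave 1.75). It too was picked after its values were seen.

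**Figure D2:**
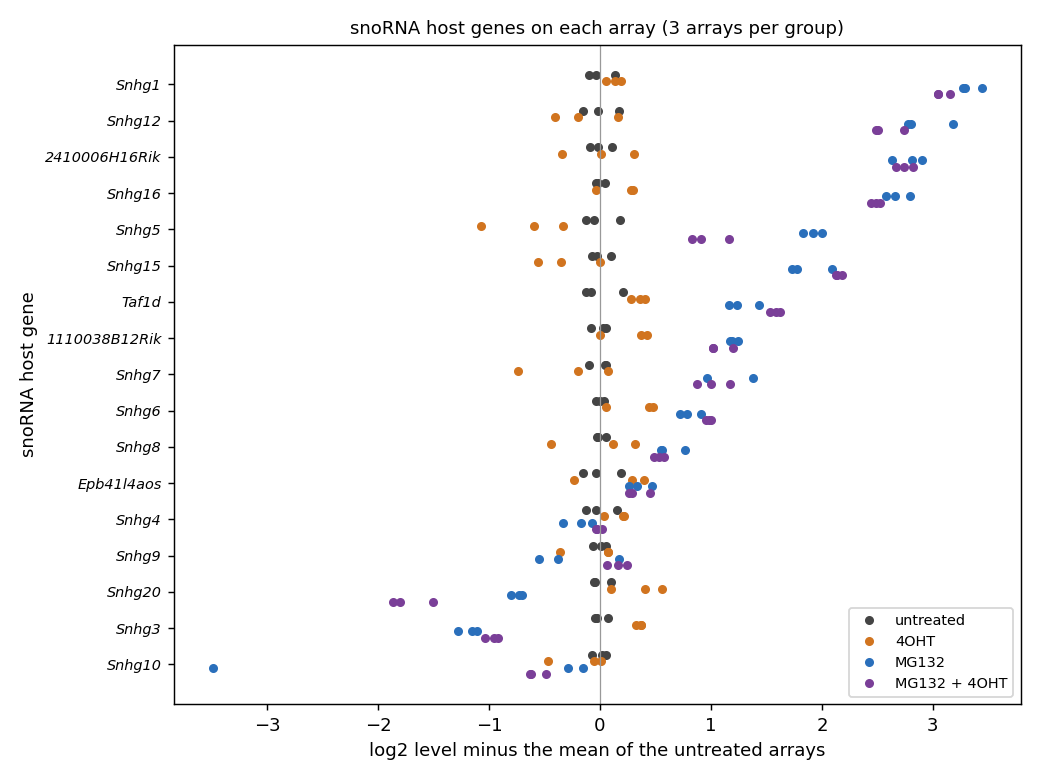
Level of each of the 17 snoRNA host genes on each array, as log2 difference from its untreated mean, with arrays of the 4 groups in separate colours. The MG132 and combined arrays lie apart from the others for the 11 hosts that rose (up to 3.34 for Snhg1) and below them for Snhg3 and Snhg20.

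MicroRNA hosts moved one by one. Of 25 names listed as hosts, 4 were members, among them Mirt1, which is not known as a host. Of these 4, 2 rose (Mirt1 among them) and 1 fell with 4OHT, and 1 rose and 1 fell with MG132. Of all accessions tested, 28.8% were called with 4OHT and 43% with MG132. A selection of the mature products that RefSeq places inside hosts described here is printed with the seed, bases 2 to 8, in capitals, since the seed decides which messenger RNAs a microRNA pairs with. The arrays measured the host transcripts and not these mature RNAs.
miR-22-3p (Mir22hg): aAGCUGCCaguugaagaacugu
miR-9-5p (Mir9-3hg): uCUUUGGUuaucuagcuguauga
miR-291a-3p (D7Ertd143e): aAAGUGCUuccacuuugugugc
miR-294-3p (D7Ertd143e): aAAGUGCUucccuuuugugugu
miR-295-3p (D7Ertd143e): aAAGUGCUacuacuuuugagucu
miR-433-3p (6430411K18Rik): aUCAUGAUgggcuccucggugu
The 3 products of D7Ertd143e printed share the seed AAGUGCU, while miR-291b-3p and miR-293-3p of the same host have the seeds AAGUGCA and GUGCCGC. The remaining seeds printed differ from these and from each other.

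Mir22hg (NR_030711) was raised by each compound. It read -3.18, -3.13 and -2.74 untreated, -1.69, -1.43 and -1.76 with 4OHT, -2.07, -2.07 and -2.17 with MG132, and -0.65, -0.84 and -1.1 with both. The rise was 1.39 ± 0.15 with 4OHT (2.62-fold, adjusted p = 0.00011), 0.91 ± 0.15 with MG132 (adjusted p = 0.00095) and 2.16 with both (4.45-fold), and no pair of groups with and without a compound overlapped. With slide as a block, MG132 added to 4OHT no longer passed (0.87, adjusted p = 0.065).

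Mirt1 (NR_028427), a transcript named for myocardial infarction, rose with 4OHT in both settings. It read -3.96, -3.8 and -3.71 untreated, -1.75, -1.86 and -2.51 with 4OHT, -3.73, -3.39 and -3.23 with MG132, and -1.94, -2.19 and -2.13 with both. The rise was 1.78 ± 0.2 without MG132 (3.43-fold, adjusted p = 0.00011) and 1.37 ± 0.2 with it. Mir9-3hg (NR_040311), host of a microRNA known for neural differentiation, fell with 4OHT from -1.65, -1.5 and -1.97 to -3.4, -3.62 and -2.78 (-1.56 ± 0.21, 2.95-fold, adjusted p = 0.00034). With MG132 it read -1.69, -1.3 and -1.61, and adding 4OHT there lowered it to -2.42, -2.34 and -2.39 (-0.85 ± 0.21, adjusted p = 0.014).

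Mir124a-1hg (NR_040709), host of a neuronal microRNA, was lowered by MG132. It read -0.76, -0.4 and -0.83 untreated, -1.15, -0.65 and -0.83 with 4OHT, -2.62, -2.81 and -3.21 with MG132, and -4.7, -4.34 and -3.76 with both. MG132 lowered it by 2.21 ± 0.25 (4.64-fold, adjusted p = 7.7e-05), and by 3.39 ± 0.25 in cells with 4OHT (10.5-fold, adjusted p = 4.1e-06). The further fall when 4OHT joined MG132 (-1.39 ± 0.25) was lost with slide as a block (-1.06, adjusted p = 0.081).

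A pair of further hosts were found by position and named after their values were seen. The span of D7Ertd143e (NR_028425) holds 11 mature microRNAs in the RefSeq table, from miR-291a to miR-295. The host read 4.08, 4.13 and 3.99 untreated and 2.95, 2.97 and 2.81 with MG132, a fall of 1.16 ± 0.12 (2.23-fold, adjusted p = 4.5e-05). With 4OHT it read 4.16, 4.14 and 4.4, against 2.53, 2.36 and 2.76 with both (3.2-fold lower). 6430411K18Rik (NR_002848), which spans miR-433, rose from -1.01, -0.9 and -1.03 to 0.26, 0.11 and 0.2 with MG132 (1.17 ± 0.12, adjusted p = 5.6e-05) and read 0.88, 0.81 and 0.46 with both. Over all 17 members that contain an annotated microRNA gene, 3 rose and 1 fell with 4OHT, and 4 rose and 5 fell with MG132. The shares of all accessions called were 28.8% and 43%.

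Of 14 accessions for lncRNAs known from nuclear bodies or chromatin (13 of 19 listed names), 7 rose and 1 fell with 4OHT. Their median difference was 0.39, beside 0.03 over all accessions. The counts were 6 and 2 with median centring or quantile normalization, 8 and 1 with normexp, and 6 and 1 without 4OHT replicate 1. With MG132, 4 rose and 2 fell (3 and 3 with median centring). Adding 4OHT to MG132 raised 4 and lowered 2, or 2 and 0 with slide as a block. For MG132 added to 4OHT, 3 rose and 5 fell, with a median of -0.21 that was 0.32 with slide as a block and 0.04 without 4OHT replicate 1. Of all accessions tested, 28.8%, 43%, 26.5% and 50.2% were called in these comparisons, in the order given.

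Morrbid (NR_028591), a myeloid lncRNA that represses its neighbour Bcl2l11, read -1.65, -1.58 and -1.68 untreated, 0.05, 0.2 and -0.04 with 4OHT, -1.48, -1.49 and -1.31 with MG132, and -0.61, -0.89 and -0.89 with both. The groups with 4OHT lay above those without it. The rise was 1.71 ± 0.11 without MG132 (3.26-fold, adjusted p = 3e-06) and 0.63 ± 0.11 with it, a difference of -1.07 ± 0.15 (adjusted p = 0.0035). With slide as a block the rise with MG132 was 0.51 (adjusted p = 0.057). The coding gene Bcl2l11, which encodes the pro-apoptotic protein Bim, rose by 3.97 with 4OHT, by 0.71 with MG132 and by 1.01 when 4OHT was added to MG132.

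Pvt1 (NR_003368), the lncRNA beside Myc, was the member of this list most raised by MG132. It read -0.08, -0.03 and 0.23 untreated, 0.71, 0.92 and 0.76 with 4OHT, 2.76, 2.63 and 2.61 with MG132, and 2.6, 2.72 and 2.55 with both. The rise was 0.76 ± 0.11 with 4OHT (adjusted p = 0.00057) and 2.62 ± 0.11 with MG132 (6.17-fold, adjusted p = 3.2e-07), and a second probe gave 2.59. The arrays with both overlapped those with MG132 alone. Myc itself moved by 2.02 with 4OHT and by -1.32 with MG132, so the neighbours differed in direction under MG132.

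Neat1, the scaffold of paraspeckles, read -2.77, -2.2 and -2.81 untreated and -0.66, -1.17 and -1.69 with 4OHT (1.42 ± 0.24, 2.67-fold, adjusted p = 0.0017; second probe 1.03). With MG132 it read -2.22, -2.27 and -2.17, a difference of 0.37 that did not pass (adjusted p = 0.26), and with both -1.21, -1.48 and -1.57. Its rise when 4OHT joined MG132 was lost with slide as a block (0.75, adjusted p = 0.24).

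Miat rose with either compound, by 1.76 ± 0.39 with 4OHT (adjusted p = 0.0069) and by 1.57 ± 0.39 with MG132 (adjusted p = 0.0085). Its replicate 3 was the lowest in every group (-1.27, 0.37, 0.32 and 0.46, against -0.77 to 2 on the other arrays). Halr1, which lies beside the Hoxa cluster, rose by 1.85 ± 0.17 with 4OHT (adjusted p = 3.3e-05). Tug1 rose by 0.85 ± 0.24 with 4OHT, a call lost without 4OHT replicate 1 (0.6, adjusted p = 0.062). Bvht rose by 1.25 ± 0.16 with MG132. Firre, a chromatin-bound X-linked RNA and the single member from the list of 8 X-inactivation centre transcripts, fell by 0.92 ± 0.26 with MG132 (adjusted p = 0.016), a call lost with slide as a block (-0.7, adjusted p = 0.061). Norad did not pass in any of the 5 comparisons. The overlapping list of p53 and stress lncRNAs (11 accessions, 3 of them snoRNA hosts) had 5 higher and 1 lower with 4OHT, and 5 higher and 1 lower with MG132. Under median centring the 4OHT counts were 4 and 3. In the reported fit, 28.8% of all accessions were called with 4OHT and 43% with MG132.

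**Figure D3:**
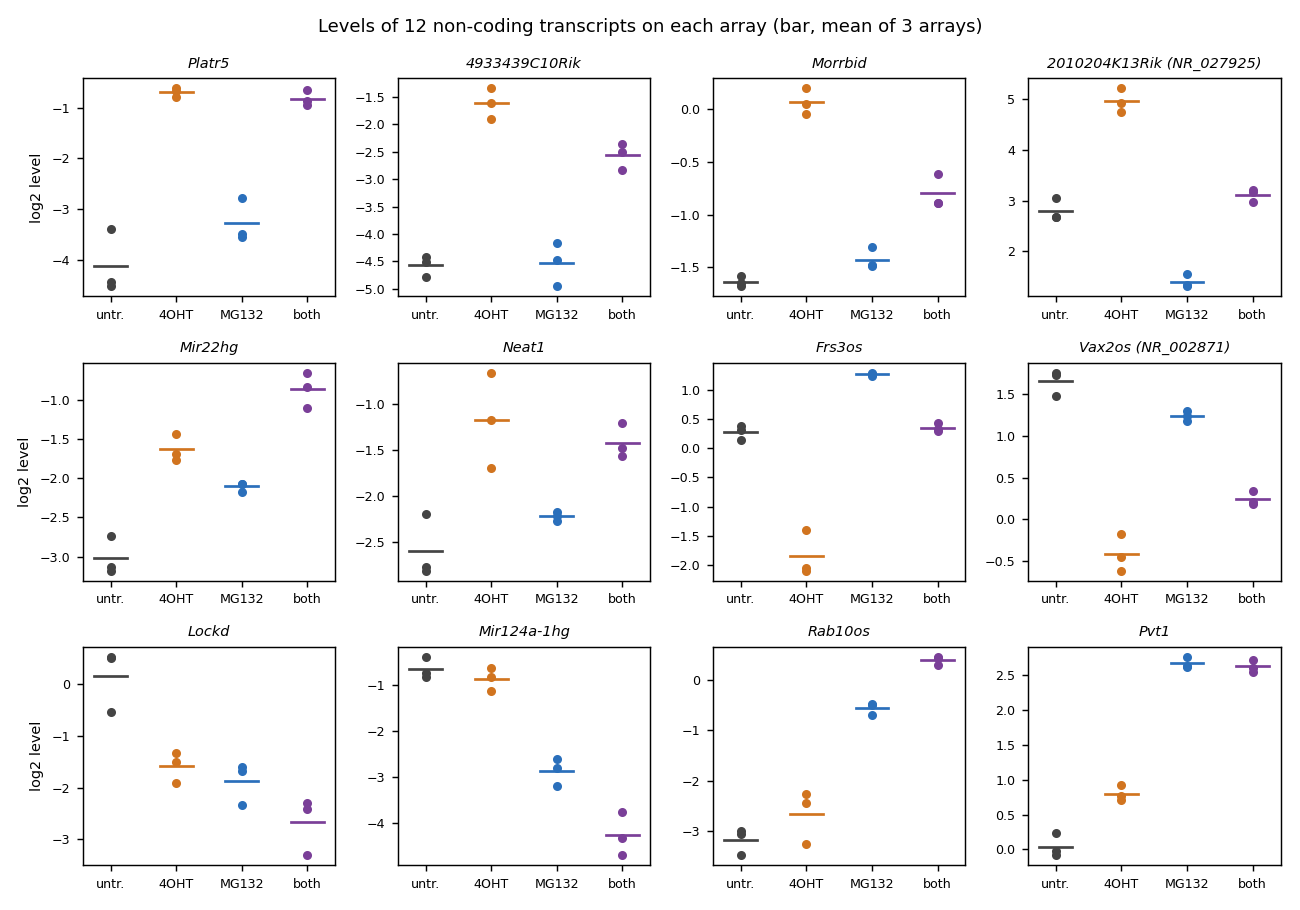
Levels of 12 accessions on the 12 arrays (log2 processed intensity relative to the array's 75th percentile), 1 panel each, by group: points are arrays and bars the mean of 3. Platr5 and 4933439C10Rik stand high in both groups with 4OHT, Rab10os and Pvt1 in both groups with MG132, and Mir124a-1hg is lowest with both compounds.

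Pluripotency-associated lncRNAs were called in both directions. Of 14 accessions (13 of 60 listed names), 4 rose and 2 fell with 4OHT, and 2 rose and 6 fell with MG132, where 28.8% and 43% of all accessions tested were called. Snhg3, also a snoRNA host, is among the 4 and among the 6. Median centring gave 2 and 3, and 1 and 7. MG132 added to 4OHT lowered 4 and raised 0, beside 50.2% of all accessions called. Platr5 (NR_040493), from a family of pluripotency-associated transcripts, had the largest rise of any member with 4OHT. It read -4.53, -4.45 and -3.4 untreated, -0.8, -0.67 and -0.62 with 4OHT, -3.5, -3.56 and -2.79 with MG132, and -0.94, -0.87 and -0.66 with both. All 6 arrays with 4OHT lay above all 6 without it, while MG132 and untreated arrays overlapped. The rise was 3.43 ± 0.29 without MG132 (10.8-fold, adjusted p = 2e-05) and 2.46 ± 0.29 with it (5.51-fold, adjusted p = 0.00034).

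Eprn and Platr10 fell with both compounds. Eprn read 3.33, 3.33 and 3.47 untreated, 2.4, 2.39 and 2.5 with 4OHT, 2.94, 2.87 and 3.05 with MG132, and 2.5, 2.54 and 2.21 with both, so that 4OHT lowered it by 0.95 ± 0.11 and MG132 by 0.42 ± 0.11. Platr10 read 1.71, 1.81 and 1.73 untreated, 0.85, 1.23 and 1.19 with 4OHT, 0.89, 0.87 and 0.87 with MG132, and 0.3, 0.19 and 0.19 with both. Its fall with both was 1.53 (2.88-fold), and each treated group lay below the untreated one. 1700007L15Rik fell by 0.75 ± 0.17 with MG132 and by 0.97 ± 0.17 more when 4OHT was added. Sox2ot, which spans the pluripotency gene Sox2, fell by 0.89 ± 0.23 when 4OHT joined MG132 (adjusted p = 0.017), a call lost with slide as a block (-0.79, adjusted p = 0.18).

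Imprinted transcripts of the Dlk1-Dio3 domain differed from each other. Over the imprinted list (7 accessions, 6 of 27 names), 1 rose and 0 fell with 4OHT, and 1 rose and 2 fell with MG132, beside the same 28.8% and 43% of all accessions. The rise was that of Meg3 NR_027652 (0.34, adjusted p = 0.028), a call lost in 9 of 28 alternatives. Rian read 1.36, 1.37 and 1.88 untreated and 0.33, 0.26 and 0.41 with MG132, a fall of 1.2 ± 0.26 (2.3-fold, adjusted p = 0.0037), and its 4OHT arrays read 2.45, 1.52 and 1.45. Meg3 accession NR_027652 fell by 0.65 ± 0.1 with MG132 (adjusted p = 0.00056), although a second probe for the same accession gave -0.15. For its other accession, NR_003633, the difference was 0.59 ± 0.34 and did not pass (adjusted p = 0.2). Mirg differed by -0.05 with MG132 (adjusted p = 0.8). Airn rose by 0.42 ± 0.13 with MG132 (adjusted p = 0.02), which was lost with slide as a block (0.29, adjusted p = 0.06). Of the 5 comparisons between groups, Kcnq1ot1 passed in both against untreated (0.93, adjusted p = 0.014), and it was lower in replicate 3 than in replicates 1 and 2 (-0.6 ± 0.07, adjusted p = 0.0013). H19, Xist, Tsix, Malat1, Gas5, Dancr, Mir17hg and Lncenc1 were not among the members by name.

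Antisense and divergent partners of developmental regulators (8 accessions, 7 of 48 names) included 2 that rose with 4OHT (Halr1 and Hoxa11os, at 0.68) and 2 that fell, and 1 each way with MG132. Of all accessions, 28.8% were called with 4OHT and 43% with MG132. The falls with 4OHT were the 2 accessions of Vax2os, transcribed opposite the eye-field gene Vax2. NR_002871 read 1.72, 1.75 and 1.47 untreated, -0.61, -0.45 and -0.17 with 4OHT, 1.23, 1.17 and 1.29 with MG132, and 0.34, 0.21 and 0.19 with both. It fell by 2.06 ± 0.13 with 4OHT (4.16-fold, adjusted p = 2.4e-06) and by 0.98 ± 0.13 when 4OHT joined MG132. NR_075094 read -3.42, -3.26 and -3.18 untreated, -4.69, -4.16 and -4.27 with 4OHT, -3.65, -3.43 and -3.07 with MG132, and -3.45, -3.42 and -3.29 with both. Its fall was 1.08 ± 0.17 without MG132, lost with normexp (-0.09, adjusted p = 0.49), and 0 ± 0.17 with it.

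The values of small structural RNAs rested on a single array in the 4OHT group. The 19 accessions (of 71 listed) had a median deviation from their group mean of 1.23 on 4OHT replicate 1 and of -0.54 and -0.72 on the other 4OHT arrays, against -0.09 to 0.13 elsewhere. Rmrp, the RNA of RNase MRP, read 4.72 on that array beside 1.49 and 1.68 on the other 4OHT arrays and 1.23, 1.33 and 1.43 untreated. Outside the list, and picked after their values were seen, Rn7s1 read 6.83 beside 2.15 and 2.26, and Rn28s1 9.62 beside 5.41 and 5.97. With 4OHT, 0 of 19 passed with all arrays (median 0.85) and 3 rose without replicate 1 (median 0.28). With MG132, 4 rose, or 10 without 4OHT replicate 1. Leaving out that array changes the spread estimate that the groups share, not the difference of MG132 from untreated. With all arrays, 28.8% of all accessions were called with 4OHT and 43% with MG132. MG132 added to 4OHT raised 3, against 9 higher and 1 lower without that array, and both against untreated raised 7, against 17. What set 4OHT replicate 1 apart was not tested, and the labelling kit primes from poly(A) tails, which most of these RNAs lack.

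The 4 that rose with MG132 did so on all 3 arrays. Rn4.5s read 7.85, 7.86 and 7.82 untreated, 7.91, 7.89 and 7.99 with 4OHT, 8.59, 8.57 and 8.84 with MG132, and 8.71, 8.62 and 8.78 with both (MG132 0.82 ± 0.09, adjusted p = 8.1e-05). Rn7sk, the RNA that holds the elongation factor P-TEFb inactive, read 2.41, 2.39 and 2.43 untreated and 3.17, 3.13 and 3.18 with MG132 (0.75 ± 0.19, adjusted p = 0.0088). Scarna13, a Cajal body RNA whose host is Snhg10, rose by 1.37 ± 0.2 (adjusted p = 0.00041), and Snora74a by 1.5 ± 0.32 (adjusted p = 0.0036).

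**Figure D4:**
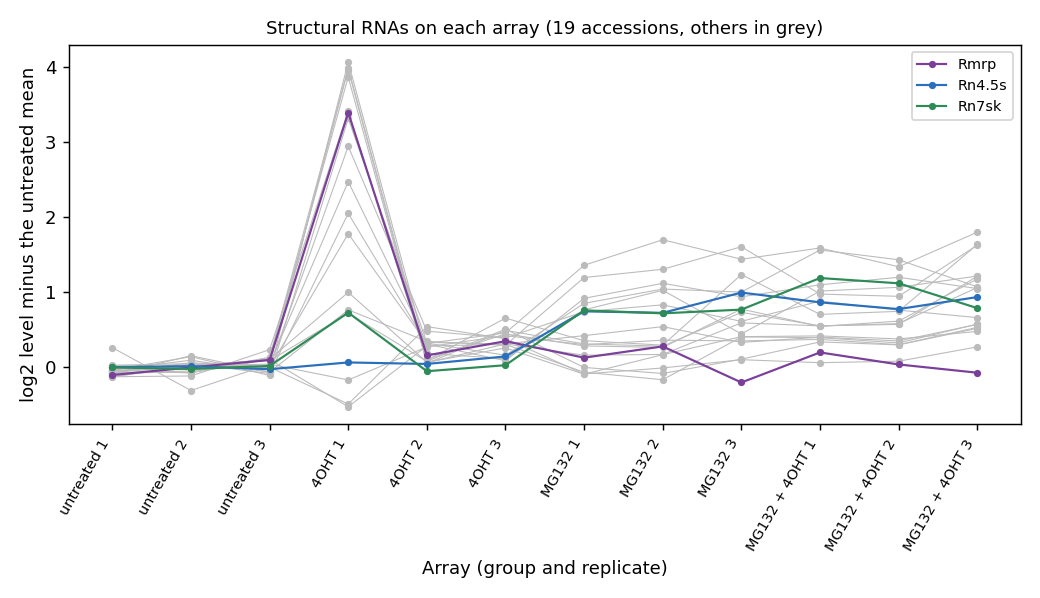
Level of 19 structural RNA accessions minus their untreated mean on each of the 12 arrays (log2), with Rmrp, Rn4.5s and Rn7sk in colour and the others in grey. Most accessions stand higher on 4OHT replicate 1 than on the other 4OHT arrays, as for Rmrp with levels of 4.72 beside 1.49 and 1.68, while Rn4.5s rises on all arrays with MG132.

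Transcribed pseudogenes moved both ways. Of 114, 9 rose and 8 fell with 4OHT, and 23 rose and 25 fell with MG132, against 28.8% and 43% of all accessions called. The largest falls with MG132 were Gm13315 (5.24, 5.3 and 5.17 untreated, 3.63, 3.48 and 3.4 with MG132, a fall of 1.73 ± 0.1) and Gm10731 (-1.59 ± 0.08, adjusted p = 8.9e-07). A parent gene could be matched by name and tested for 19 of them. With 4OHT, 6 pseudogenes were called, all 6 in the parent's direction. With MG132, 10 were called, 8 in the parent's direction, 1 against it and 1 with a parent that did not pass. Among pairs named after their values were seen, Selenok-ps1 moved by 0.99 and -0.77 with 4OHT and MG132 beside 0.94 and -0.76 for its parent, and Tubb2a-ps2 by -1.38 with MG132 beside -0.74. Pdxk-ps fell by 1.03 with MG132 while Pdxk rose by 0.65. A pseudogene's probe can share sequence with its parent, and which of them it reads was not tested.

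Many of the largest 4OHT rises belonged to transcripts of unknown role. 4933439C10Rik (NR_015585) read -4.51, -4.43 and -4.78 untreated, -1.6, -1.34 and -1.9 with 4OHT, -4.47, -4.16 and -4.96 with MG132, and -2.5, -2.36 and -2.83 with both, a rise of 2.96 ± 0.22 without MG132 (7.77-fold, adjusted p = 8.3e-06) and 1.97 with it. 1700029M20Rik rose by 2.93 ± 0.23 (7.64-fold) and 5730416F02Rik by 2.04 ± 0.11. In all 3 the 4OHT arrays lay above every untreated array. D630041G03Rik, at 2.73 ± 0.79, rested on 2 of its 3 arrays (-4.38, -0.58 and -1.26 beside -4.67, -4.79 and -4.96 untreated), and its call (adjusted p = 0.026) was lost in several alternatives.

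2010204K13Rik, an X-linked lncRNA, was pushed in opposite directions by the compounds. NR_027925 read 2.67, 2.68 and 3.04 untreated, 4.92, 5.22 and 4.76 with 4OHT, 1.3, 1.33 and 1.54 with MG132, and 3.2, 3.16 and 2.98 with both. It rose by 2.17 ± 0.15 with 4OHT (4.5-fold) and fell by 1.41 ± 0.15 with MG132. With both it lay between the single treatments. Its other accession, NR_027924, gave 1.82 and -1.41. 4931440P22Rik, which overlaps the coding gene Tiparp, showed the same signs (1.68 and -1.46), as did Tiparp (2.27 and -0.68). D930048N14Rik rose by 1.19 ± 0.23 with 4OHT, over 2 arrays since one spot was left out, and fell by 2.19 ± 0.21 with MG132. In cells with 4OHT the fall was 3.37 ± 0.23 (10.3-fold).

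Frs3os (NR_045912), antisense to a gene for an FGF receptor adaptor, fell with 4OHT. It read 0.38, 0.31 and 0.15 untreated, -2.1, -2.05 and -1.4 with 4OHT, 1.27, 1.3 and 1.25 with MG132, and 0.43, 0.3 and 0.34 with both. The fall was 2.13 ± 0.16 without MG132 (4.38-fold, adjusted p = 1e-05) and 0.91 with it, and MG132 raised it by 0.99 ± 0.16. Lockd, transcribed downstream of the cell-cycle inhibitor gene Cdkn1b, fell with each: 0.49, 0.52 and -0.54 untreated, -1.92, -1.34 and -1.5 with 4OHT, -1.69, -1.61 and -2.34 with MG132, and -2.3, -2.42 and -3.3 with both. The falls were 1.74 ± 0.35 with 4OHT (adjusted p = 0.0043) and 2.03 ± 0.35 with MG132 (adjusted p = 0.0011), beside -1.03 and -1.16 for Cdkn1b. Abhd11os fell by 1.48 ± 0.3 with 4OHT and by 1.79 ± 0.3 when 4OHT joined MG132. Tmem51os1 fell by 1.56 ± 0.22 with 4OHT, beside -1.64 for Tmem51.

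With MG132, Rab10os (NR_015551) was among the largest rises. It read -3.06, -2.99 and -3.47 untreated, -2.26, -2.44 and -3.26 with 4OHT, -0.48, -0.49 and -0.7 with MG132, and 0.44, 0.46 and 0.3 with both. The rise was 2.62 ± 0.23 without 4OHT (6.13-fold) and 3.05 ± 0.23 with it (8.29-fold). Its coding neighbour Rab10 differed by 0.26 with MG132 and did not pass (adjusted p = 0.12). 5730480H06Rik rose by 2.59 ± 0.12 and 9230114K14Rik by 2.34 ± 0.31, while 1700096K18Rik fell by 2.15 ± 0.24 and accession NR_015528 by 1.53 ± 0.22.

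When 4OHT was added to MG132, the largest rise was that of 1700042O10Rik (NR_045178). It read 0.11, 0.24 and 0.41 untreated, 1.86, 2.09 and 1.54 with 4OHT, 0.39, 0.31 and 0.4 with MG132, and 3.2, 3.12 and 2.86 with both. The rise was 2.69 ± 0.15 with MG132 (6.46-fold, adjusted p = 6.7e-06) and 1.58 ± 0.15 without it. Rbfaos rose by 1.85 with 4OHT, 1.16 with MG132 and 3.39 with both (10.5-fold).

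Whether MG132 altered the response to 4OHT was tested as an interaction, which passed for 24 members (4.06%), 10 positive and 14 negative, beside 6.49% of all accessions (2.91% positive, 3.59% negative). With slide as a block 13 passed, 11 of them among the 24, and without MG132 replicate 3 or 4OHT replicate 3 the counts were 42 and 39. Of the 24, 7 were called in both settings in the same direction, 3 in opposite directions, 8 only without MG132 and 6 only with it. Over the 591 members the responses had a Pearson r of 0.6, a description across transcripts that share arrays and are not independent. Of the 138 members called without MG132 and the 153 called with it, 76 were called in both (55.1% and 49.7%), 73 in the same direction. The MG132 responses without and with 4OHT gave an r of 0.77, with 175 called in both, 171 in the same direction.

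Gm21283 had the largest negative difference. It read -4.65, -4.15 and -4.49 untreated, -2.46, -1.87 and -1.76 with 4OHT, -2.61, -2.67 and -2.05 with MG132, and -1.95, -1.92 and -1.52 with both. Each compound raised it (2.4 ± 0.23 and 1.99 ± 0.23), whereas 4OHT added to MG132 gave 0.65 (adjusted p = 0.066), and the difference was -1.75 ± 0.33. AI839979 showed a similar order of groups (1.38 and 1.21 alone, -0.16 when 4OHT joined MG132). 1700029M20Rik rose by 2.93 without and 1.23 with MG132 (-1.71 ± 0.33). A930004D18Rik was lowered by 4OHT only with MG132 (-1.11, difference -1.21): it read -0.82, -0.97 and -0.5 untreated, -0.68, -0.9 and -0.42 with 4OHT, -2.22, -2.39 and -2.13 with MG132, and -3.41, -3.61 and -3.06 with both. In the other direction, Frs3os had the largest positive difference (1.22 ± 0.23), lost with slide as a block (1.24, adjusted p = 0.066), as was that of 1700042O10Rik (1.07, adjusted p = 0.075).

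**Figure D5:**
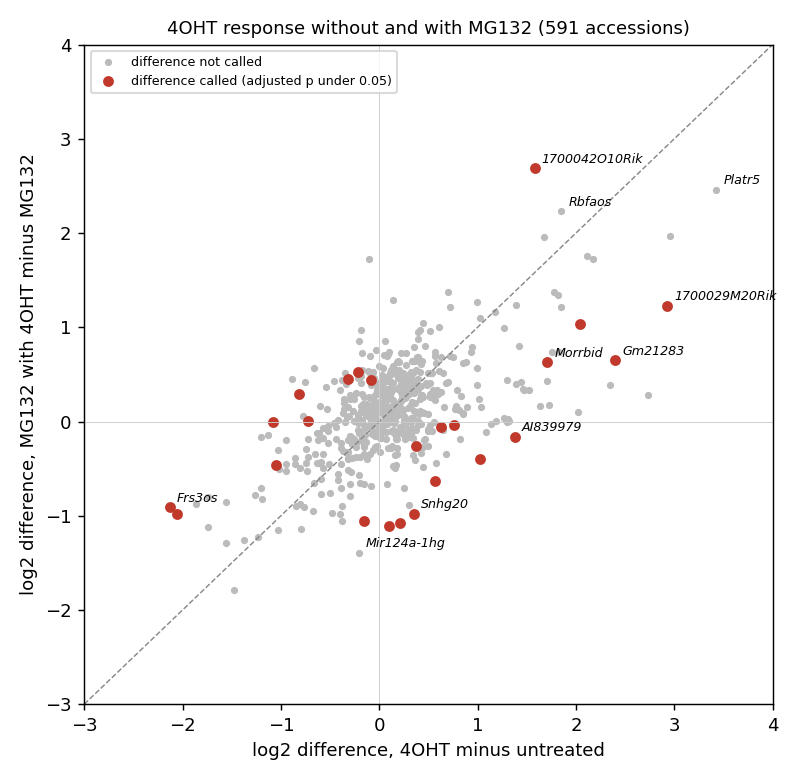
4OHT response (log2 difference) without MG132 on the x axis and with MG132 on the y axis for the 591 members, with the 24 whose responses differed in red and the dashed line marking equal responses. Gm21283 and 1700029M20Rik lie to the right of the line, and Frs3os and 1700042O10Rik above it.

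Coding neighbours were found by name and position in the RefSeq table for members with a located gene. A divergent gene lay on the opposite strand with its start within 1000 bases. The strand was known for 326 of 537 located members. The others could not be classed as divergent, so the overlapping and nearest classes can hold divergent genes too. Of 50 members with a divergent coding gene tested, 11 were called with 4OHT, 4 of them with a called partner, all 4 in the same direction. Of 168 that overlap a coding gene, 37 were called, 20 with a called partner, 17 in the same direction. For 217 whose nearest coding gene was neither, 52 were called, 27 with a called neighbour, 19 in the same direction. With MG132 the same-direction counts were 8 of 12, 22 of 33 and 18 of 37. Of all accessions tested, 28.8% were called with 4OHT and 43% with MG132. Whether a probe also reads the transcript of an overlapping partner was not tested.

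Promoters of the members that rose with 4OHT held an AP-1 motif (TGANTCA, its own reverse complement, any match on either strand) in 12 of 50 cases (24%), against 8.97% of 27025 genes, 9.31% of the 333 members with a promoter entry and 7.32% of the 41 that fell. Windows ran from 250 bases before to 50 after each annotated start, and counting the first start only gave 22% beside 7.93%. AP-1 was 1 of 10 motifs searched, so the share is a description with no test. The stretches around the motif, in capitals, are shown for 5 members that rose. They are Platr5, chr1:88754852-88754908 (+), Morrbid, chr2:128429321-128429377 (-), Mirt1, chr19:53464905-53464961 (-), Gm21283, chr8:110502378-110502434 (-), and 2010204K13Rik, chrX:7423070-7423126 (-), all GRCm38.p6.
Platr5: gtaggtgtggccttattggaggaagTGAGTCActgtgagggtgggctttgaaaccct
Morrbid: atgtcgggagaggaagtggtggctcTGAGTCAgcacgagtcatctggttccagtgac
Mirt1: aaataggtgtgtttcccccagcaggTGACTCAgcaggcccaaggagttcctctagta
Gm21283: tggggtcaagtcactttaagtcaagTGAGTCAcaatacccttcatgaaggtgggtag
2010204K13Rik: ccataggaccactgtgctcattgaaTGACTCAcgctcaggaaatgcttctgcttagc
The motif in Mirt1 also matches the NRF2 antioxidant element searched, TGACNNNGC. These members rose by 3.43, 1.71, 1.78, 2.4 and 2.17 with 4OHT in the order printed. Among the other motifs, the ETS motif (CCGGAAGT, either strand) was in 10 of 69 promoters of members that fell with MG132 (14.5%), against 4.31% of all genes. It was in 5.71% of the members and in 10% of those that rose with 4OHT. The AP-1 motif was in 0 of 14 snoRNA host promoters. The remaining 8 motifs, searched on both strands, were CRE (TGACGTCA), the heat shock element, the ATF4 composite (TGATGNAA), NRF1, YY1, the NRF2 element above, the CArG box and the p53 half-site pair. CRE was in 9.76% of the members that fell with 4OHT, beside 4.8% of the members and 2.03% of all genes. The shares named were picked from 10 motifs over several sets and carry no test.

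Replicate 3 differed from replicates 1 and 2 across groups in 55 members (9.31%), 25 higher and 30 lower, beside 10% of all accessions (5.13% higher, 4.86% lower). With slide as a block 33 passed. Zscan4a, a pseudogene-class member of the Zscan4 cluster that marks a transient ESC state, read -1.98, -1.69 and -4.38 in untreated replicates 1 to 3, -1.33, -1.33 and -4.4 with 4OHT, -1.06, -1.16 and -3.41 with MG132, and -0.69, -0.53 and -2.49 with both. Replicate 3 was lowest in every group (-2.45 ± 0.16, adjusted p = 0.00011). E330020D12Rik (-1.8 ± 0.15) and Gpx2-ps1 (-1.61 ± 0.15) had the same order. Whether the number 3 marks a shared culture or day was not given in the sources used here.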

How the data were processed

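Total RNA of mouse ESCs, freed of genomic DNA, was amplified and labelled with Cy3 using Agilent's low-input kit, per the labels' protocols. The authors deposited a scanner file for every array. Per the file headers it was written by Agilent Feature Extraction 11.0.1.1, and its processed intensity is background-subtracted and not scaled between arrays. The deposited series-wide values were identical to that intensity. Each array held 62976 spots, 3671 of them controls, which were left out with spots marked as outliers (1707 over all arrays). None was saturated and no arrays were identical.

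Spots of one probe were averaged. log2 processed intensity minus the array's 75th percentile (309 to 485 units, over all non-control spots) was used. Each accession took, among its probes that passed the filter below, the one with the highest mean. For members these were probes above background on all 12 arrays. An accession was tested when every array of some group was above background (28294), of which 591 were members, and 3 members lack 1 value each (D930048N14Rik, Snhg7 and 2610005L07Rik). limma 3.58.1 (R 4.3.3, data.table version 1.17.8, jsonlite 2.0.0) was fitted with 1 coefficient per group over 12 arrays (residual degrees of freedom 8, prior 2.08). Benjamini-Hochberg adjustment ran over all accessions tested with a threshold of 0.05. The members' median SE was 0.17 for a difference of 2 groups of 3 arrays, whose number limits the precision. The spread was estimated over all groups together, although 4OHT arrays varied more than the others. An SE is therefore not the spread of the arrays compared alone. Exact tests of 3 against 3 arrays cannot go below p = 0.1 and were not run. The fit was tested on simulated data.

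Named transcripts were the 8 largest called rises and falls without overlap in each of 4 comparisons. The 5 largest for both against untreated, the difference of responses and replicate 3 were also named. Up to 3 called members per list and a fixed set of well-known transcripts were added. Most others are marked as chosen after their values were seen. Norad, Hoxa11os, Epb41l4aos, Snhg4 and Snhg9 were also named outside this rule, as were some members flagged for a closer look. Members and the 9 lists were chosen with earlier results of these data known. Names, promoters and microRNAs came from RefSeq tables of GRCm38.p6, while the array design names an older build, so no member coordinates are given. Figures were drawn with Python 3.11.15, numpy 2.4.6 and matplotlib 3.10.9. Alternatives were normexp background correction (offset 50, on median signals), quantile normalization, median centring, 2 other definitions of the percentile, other filters, the mean over probes, a trended prior, a 2-fold minimum, the slide or the replicate number as a block, within-slide fits, the 6 arrays compared alone, and leaving out each array.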

Additional observations from a re-analysis of the deposited data

Results flagged for a closer look

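The 24 members below had a 4OHT response that differed between cells with and without MG132 by a tested interaction term (limma, adjusted p under 0.05, log2 difference with MG132 minus without; n = 3 arrays per group). No explanation was weighed. Positive differences were those of Frs3os (1.22), 1700042O10Rik (1.11), Bambi-ps1 (1.1), Vax2os NR_075094 (1.08) and NR_002871 (1.07), H2-K2 (0.77), 6430411K18Rik (0.74), accession NR_105032 (0.73), Gm16907 (0.59) and accession NR_027875 (0.52). Negative ones were those of Gm21283 (-1.75), 1700029M20Rik (-1.71), AI839979 (-1.54), B130006D01Rik (-1.43), Snhg20 (-1.33), 8430430B14Rik (-1.29), A930004D18Rik (-1.21), 4930455D15Rik (-1.2), Morrbid (-1.07), 5730416F02Rik (-1), Gm16062 (-0.91), Pvt1 (-0.8), Gm26705 (-0.69) and Pisd-ps1 (-0.62). The difference of Vax2os NR_075094 was lost in 10 of 26 alternatives. The 3 called in opposite directions with and without MG132 were H2-K2, Pisd-ps1 and 4930455D15Rik. H2-K2, a transcribed pseudogene of the major histocompatibility complex, read 0.1, 0.22 and 0.08 untreated, -0.26, -0.1 and -0.2 with 4OHT, 1.51, 1.6 and 1.26 with MG132, and 1.81, 1.94 and 1.96 with both. 4OHT changed it by -0.32 without MG132 (adjusted p = 0.044) and by 0.45 with it (adjusted p = 0.012), and MG132 raised it by 1.32. 8430430B14Rik read -2.33, -2.49 and -2.32 with MG132 and -3.35, -3.55 and -3.48 with both, whereas its untreated and 4OHT arrays overlapped. Every array with both compounds lay on slide 2, and 11 of the 24 passed with slide as a block.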

How the results depend on the processing

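Over the 7 signed comparisons, 0 members called both in the reported fit and under an alternative had opposite signs. Counts of called members that moved by over 1.5 times were these. For 4OHT added to MG132 (153), no filter on low signal gave 100, slide as a block 60, arrays of slide 2 alone 41, slide and replicate block together 42, and a 2-fold minimum 32. For MG132 added to 4OHT (276) the slide block gave 120, slide and replicate block 108 and the 2-fold minimum 88. For both against untreated (323) these were 158, 135 and 122. For 4OHT (138), the 6 arrays compared alone gave 91 and the 2-fold minimum 48, and for MG132 (235) the 2-fold minimum gave 81. For the difference of responses (24) the slide block gave 13, slide and replicate block 10, and the 2-fold minimum 15. For replicate 3 (55), no filter gave 27, slide 33, slide 1 alone 8 and the 2-fold minimum 3. Deviations of same-numbered arrays correlated at -0.05 to 0.15 for replicate 1, 0.07 to 0.16 for replicate 2 and 0.12 to 0.4 for replicate 3. Not every pair was over 0.1, and 4 of 12 arrays correlated best with their own number, so the fit without this block is the one reported. The replicate number as a block gave 45 for the difference of responses, and 156, 261, 186, 295 and 336 for the 5 comparisons. Slide as a random block (consensus correlation 0.091) gave 135, 244 and 282 for the 3 comparisons with both compounds.

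Leaving out 1 array gave 98 to 156 members for 4OHT, 198 to 285 for MG132, 92 to 202 for 4OHT added to MG132, 229 to 306 for MG132 added to 4OHT, 277 to 375 for both, 19 to 42 for the difference, 335 to 428 for any difference and 33 to 80 for replicate 3. Without 4OHT replicate 1 the counts were 137, 285, 202, 306, 375 and 35. For 4OHT added to MG132, MG132 replicates 1 and 2 (92 and 101) and replicates 1 and 2 with both compounds (97 and 99) each moved the count by over 1.5 times. Replicate 3's count fell to 36 without untreated replicate 2, 34 and 33 without MG132 replicates 2 and 3, and 35 without replicate 2 or 3 with both.

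Of 205 results on named transcripts, 135 kept their call in every alternative. The slide block lost 25, slide and replicate block 32, and scaling alternatives 4 to 8 each. The 75th percentile over averaged probes, a definition added after seeing the data, gave 112 higher and 128 lower for MG132. Members just above background are limited by their signal over background.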
